A study of Mus musculus with 6 samples.

Results

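Type I interferon-stimulated genes are the genes that cells switch on when interferon alpha or beta binds its receptor. The list followed here was chosen by gene symbol and holds 36 genes: both receptor subunits, 3 transcription factors of the pathway, nucleic acid sensors, and antiviral effectors. All 36 were among the 24956 gene rows of the deposited table, and 35 passed the filter on low counts. Bulk RNA came from microglia, which are brain-resident macrophages, isolated by cell sorting from 7-month-old 3XTg-AD mice. This strain carries mutant human APP and MAPT transgenes driven in neurons by Thy1 regulatory sequences, and both groups were of this strain. The 3 anti-NK1.1 libraries came from mice given 25 µg of an antibody that depletes cells bearing NK1.1, a receptor of natural killer (NK) cells, and the 3 isotype libraries from mice given a control antibody, every 4 days for 4 weeks in each group. The labels do not say whether a library came from 1 animal or a pool, so p-values measure the spread between these libraries, which may be technical.

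Type I interferons signal through a receptor of the subunits IFNAR1 and IFNAR2, which activates the kinases JAK1 and TYK2. Transcription factors that include STAT2 and IRF9 then form a complex, ISGF3, that binds a DNA element in the promoters of interferon-stimulated genes. The products of these genes block viral entry, translation and replication, and some restrain the pathway. In mouse models of amyloid deposition, a small fraction of microglia shows a high level of these genes.

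Gene counts totalled 26.9 M to 31.4 M in the anti-NK1.1 libraries and 31.9 M to 36.1 M in the isotype libraries. Klrb1c, which encodes NK1.1, had 0, 0 and 13 counts in anti-NK1.1 libraries 1 to 3, against 50, 45 and 80 counts in isotype libraries 1 to 3. All 7 microglial markers were present in every library. Summed, they reached 22688 to 30510 CPM in anti-NK1.1 libraries, against 26220 to 30539 CPM in isotype libraries (CPM: the count per M counts, scaled between libraries). Libraries stood apart within the anti-NK1.1 group. The 10 neutrophil markers summed to 30695, 31201 and 135526 CPM in anti-NK1.1 libraries 1 to 3, against 97280, 75709 and 69316 CPM in isotype libraries 1 to 3. The rank correlation of gene level with transcript length, each library against the mean of the 6, was -0.16, 0.26 and -0.31 in anti-NK1.1 libraries 1 to 3 and -0.02, 0.06 and 0.34 in isotype libraries 1 to 3. Long transcripts thus had relatively few counts in anti-NK1.1 1 and 3 and relatively many in isotype 3 and anti-NK1.1 2.

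The DNA element bound by ISGF3 and by interferon regulatory factors was looked for in the promoters of the list, taken from RefSeq on GRCm38.p6 as the 250 bases before and 50 bases after a gene's start. The letters searched were GAAANNGAAA on both strands, and overlapping matches were allowed. Of the 36 genes, 27 had a promoter in the RefSeq table, and 14 of these 27 (51.9%) held a match, against 1079 of all 27025 genes with a promoter (3.99%). The promoters printed here belong to Bst2 and Oas1a, whose anti-NK1.1 means lay well above the isotype means, to Isg15, Ifit3, Ifit1 and Rsad2, whose anti-NK1.1 means lay close to or below them, and to the receptor gene Ifnar2, which held no match. Each runs 5′ to 3′ on the gene's strand, and capitals mark the matches, with overlapping matches joined in 1 run.
Bst2 (chr8:71537423-71537722, minus strand): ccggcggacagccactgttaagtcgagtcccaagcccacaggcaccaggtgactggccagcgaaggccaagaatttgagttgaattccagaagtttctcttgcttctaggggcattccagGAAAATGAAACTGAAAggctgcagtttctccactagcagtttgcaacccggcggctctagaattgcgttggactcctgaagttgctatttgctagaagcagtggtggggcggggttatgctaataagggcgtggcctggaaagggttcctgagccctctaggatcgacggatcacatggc
Oas1a (chr5:120907476-120907775, minus strand): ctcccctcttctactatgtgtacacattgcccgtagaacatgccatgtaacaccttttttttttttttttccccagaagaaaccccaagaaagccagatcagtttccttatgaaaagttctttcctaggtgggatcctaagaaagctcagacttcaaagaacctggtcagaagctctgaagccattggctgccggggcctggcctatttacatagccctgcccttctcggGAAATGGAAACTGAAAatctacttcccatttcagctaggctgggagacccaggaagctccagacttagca
Isg15 (chr4:156200769-156201068, minus strand): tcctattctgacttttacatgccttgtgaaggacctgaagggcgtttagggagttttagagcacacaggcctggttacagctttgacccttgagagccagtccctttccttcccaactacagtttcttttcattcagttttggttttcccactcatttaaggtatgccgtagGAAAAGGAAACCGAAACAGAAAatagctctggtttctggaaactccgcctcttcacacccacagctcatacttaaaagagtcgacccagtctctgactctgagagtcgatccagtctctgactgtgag
Ifit3 (chr19:34583279-34583578, plus strand): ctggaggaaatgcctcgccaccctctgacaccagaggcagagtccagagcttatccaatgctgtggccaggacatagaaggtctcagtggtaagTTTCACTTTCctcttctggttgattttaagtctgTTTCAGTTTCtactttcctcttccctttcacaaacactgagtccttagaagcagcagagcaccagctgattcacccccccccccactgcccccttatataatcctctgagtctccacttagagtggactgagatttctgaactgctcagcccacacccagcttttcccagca
Ifit1 (chr19:34640639-34640938, plus strand): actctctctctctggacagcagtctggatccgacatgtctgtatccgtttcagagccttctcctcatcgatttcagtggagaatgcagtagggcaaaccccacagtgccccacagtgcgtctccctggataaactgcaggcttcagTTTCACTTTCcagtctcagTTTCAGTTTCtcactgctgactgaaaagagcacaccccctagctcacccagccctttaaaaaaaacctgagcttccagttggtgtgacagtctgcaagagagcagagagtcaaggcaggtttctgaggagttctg
Rsad2 (chr12:26456403-26456702, minus strand): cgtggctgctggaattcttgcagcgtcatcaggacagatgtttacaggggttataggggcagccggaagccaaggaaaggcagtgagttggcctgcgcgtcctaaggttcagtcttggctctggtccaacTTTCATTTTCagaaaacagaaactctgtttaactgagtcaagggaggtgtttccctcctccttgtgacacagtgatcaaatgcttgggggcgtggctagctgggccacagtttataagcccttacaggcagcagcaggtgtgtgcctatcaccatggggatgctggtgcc
Ifnar2 (chr16:91372533-91372832, plus strand): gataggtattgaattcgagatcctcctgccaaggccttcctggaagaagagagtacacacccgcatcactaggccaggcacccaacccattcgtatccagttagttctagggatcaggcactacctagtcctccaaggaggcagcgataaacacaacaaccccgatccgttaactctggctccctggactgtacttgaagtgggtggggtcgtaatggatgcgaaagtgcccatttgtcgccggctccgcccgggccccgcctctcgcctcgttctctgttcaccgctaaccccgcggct
The matches began 130 and 124 bases before the start in Bst2, 20 and 14 in Oas1a, 78, 72 and 66 in Isg15, 156 and 122 in Ifit3, 104 and 85 in Ifit1, and 120 in Rsad2. Of the tested genes with a promoter, the 14 with a match had a median log2 change of -0.33 (range -0.86 to 0.90, 5 above 0), and the 12 with no match had a median of -0.05 (range -1.86 to 0.49, 6 above 0). Log2 changes here and throughout are anti-NK1.1 over isotype. A match did not separate genes with higher from genes with lower levels.

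No gene of the list passed the test between anti-NK1.1 and isotype microglia, and its genes did not move in 1 direction. Of the 35 tested genes, 15 had a positive log2 change and 20 a negative one, with a median of -0.11, while all 14520 tested genes had a median of 0.02. edgeR's quasi-likelihood test called 0 of 35 genes at an adjusted p under 0.05, and the smallest adjusted p among them was 0.727. It called 0 of all 14520 genes (0%). At an unadjusted p under 0.05 there were 2 of the 35 genes, Bst2 and Rtp4, beside 950 of all tested genes (6.54%). DESeq2 on the same counts called 0 of the 35 genes and 83 of all genes. The 3 anti-NK1.1 values lay above all 3 isotype values for 2 of the 35 genes, Bst2 and Ifnar2, as they did for 7.73% of all tested genes. They lay below all 3 isotype values for 2 of the 35, Oasl2 and Herc6, as for 7.59% of all tested genes. These shares were close to those of all genes.

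**Figure D1:**
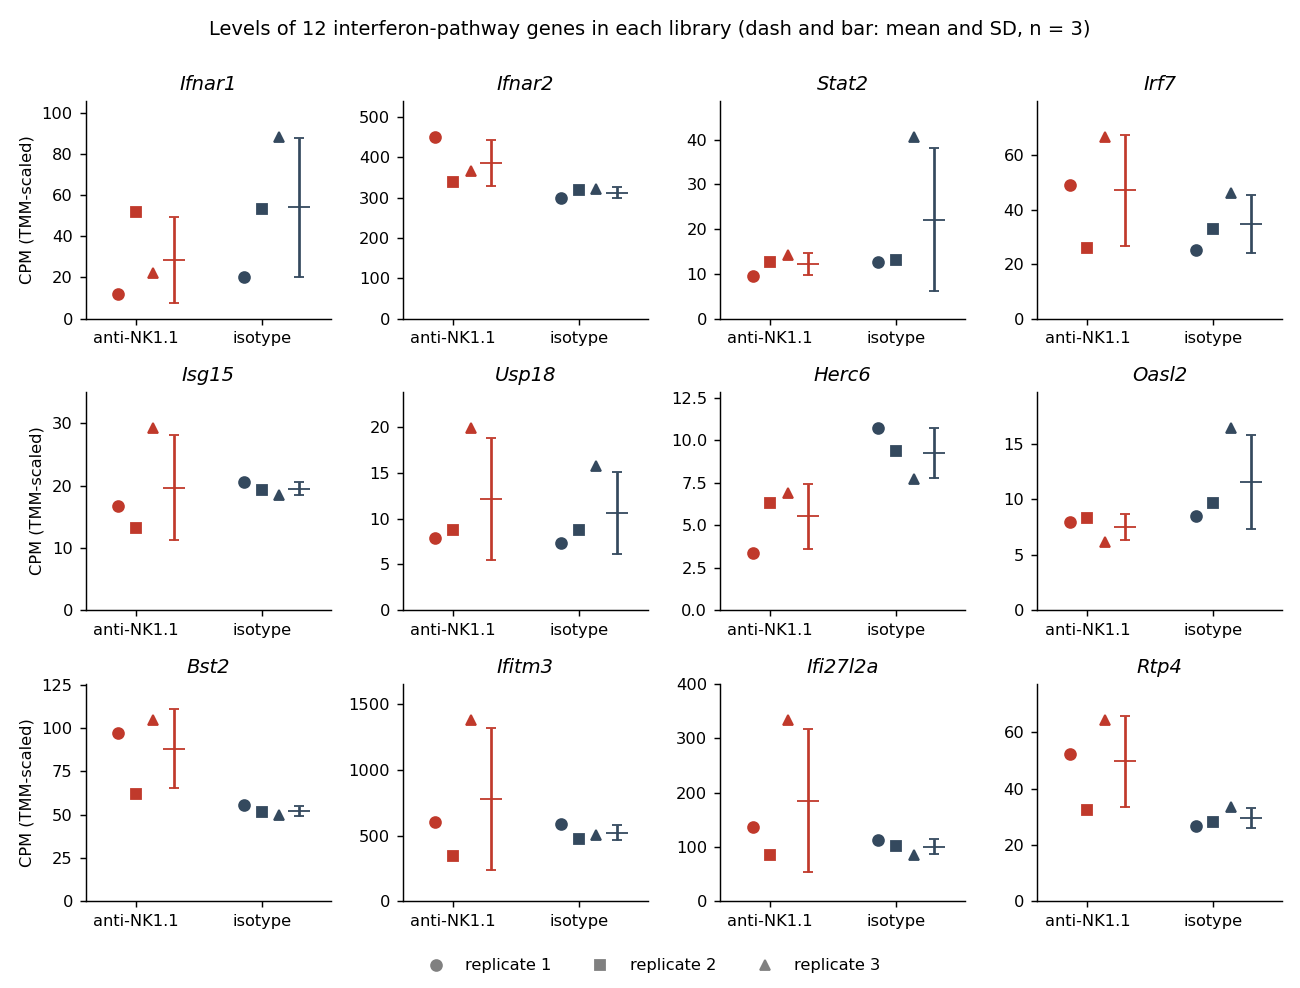
Level of 12 genes of the interferon pathway in CPM (vertical axis from 0) in each anti-NK1.1 library (left, red) and isotype library (right, dark grey), with the mean and SD of each group (n = 3) beside the points and the replicate given by the symbol. The groups do not overlap for Bst2, Ifnar2, Oasl2 and Herc6, and anti-NK1.1 3 is the highest point for Ifitm3 at 1379 CPM and Ifi27l2a at 334 CPM.

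Neither receptor subunit gene passed the test, and a difference between them was not tested. Ifnar2 (chromosome 16, 91372783 to 91405589, GRCm38) had 450.3, 339 and 367 CPM in anti-NK1.1 libraries 1 to 3, against 298, 318 and 322 CPM in isotype libraries 1 to 3. Every anti-NK1.1 library lay above every isotype library, and the log2 change was 0.30 ± 0.20 (SE), which edgeR did not call (adjusted p = 0.755). Ifnar1 (chromosome 16, 91485238 to 91507441) had 11.8, 51.7 and 22.0 CPM in anti-NK1.1 libraries, against 20.4, 53.4 and 88.2 CPM in isotype libraries. Its groups overlapped, with anti-NK1.1 2 close to isotype 2, and its log2 change was -0.92 ± 0.61 (edgeR adjusted p = 0.751). Without isotype 3 it was -0.37, and with anti-NK1.1 1 and 3 left out it was -0.06. Per kilobase of transcript, Ifnar2 stood at 149 CPM in anti-NK1.1, against 121 CPM in isotype libraries, and Ifnar1 at 8.54 and 16.2 CPM.

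Of the transcription factors, none separated the groups. Stat2, which encodes a component of ISGF3, had 9.56, 12.7 and 14.3 CPM in anti-NK1.1 libraries 1 to 3, against 12.7, 13.1 and 40.6 CPM in isotype libraries 1 to 3. A single library, isotype 3, stood above the other 5, and the log2 change was -0.86 ± 0.52 (edgeR adjusted p = 0.745). Without isotype 3 it was -0.09. Irf9, which encodes the DNA-binding component of ISGF3, had 38.8, 66.8 and 67.0 CPM in anti-NK1.1 libraries, against 54.8, 53.3 and 77.6 CPM in isotype libraries. Irf7, the factor that amplifies interferon alpha production and is itself interferon-induced, had 48.9, 25.9 and 66.6 CPM in anti-NK1.1 libraries, against 25.2, 32.9 and 46.0 CPM in isotype libraries. For Irf9 and Irf7 the groups overlapped, with log2 changes of -0.11 ± 0.30 and 0.44 ± 0.39.

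The nucleic acid sensors had negative or near-zero log2 changes. Ifi204, a DNA-binding protein of the mouse Ifi200 cluster (chromosome 1, 173747293 to 173766943), had 2.07, 10.1 and 12.3 CPM in anti-NK1.1 libraries 1 to 3, against 22.3, 11.9 and 20.5 CPM in isotype libraries 1 to 3. The groups overlapped by 1 library each, anti-NK1.1 3 and isotype 2, and the log2 change was -1.16 ± 0.63 (edgeR adjusted p = 0.743). The RNA sensors Ddx58 (RIG-I) and Ifih1 (MDA5) had -0.77 ± 0.50 and -0.19 ± 0.62, and the RNA-activated kinase Eif2ak2 (PKR) had -0.59 ± 0.81. Ddx58 had 7.90, 23.7 and 7.45 CPM in anti-NK1.1 libraries, against 22.5, 20.3 and 23.9 CPM in isotype libraries. Anti-NK1.1 2 lay within the isotype range and the other 2 anti-NK1.1 libraries far below it. Zbp1, a sensor of left-handed nucleic acids, had 0.04 ± 0.51.

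ISG15 is a ubiquitin-like protein that is attached to other proteins, in mice mainly by the ligase HERC6, and removed by USP18, which also binds IFNAR2 and restrains signalling. Isg15 (chromosome 4, 156199424 to 156200818) had 16.7, 13.1 and 29.2 CPM in anti-NK1.1 libraries 1 to 3, against 20.6, 19.3 and 18.5 CPM in isotype libraries 1 to 3. The group means were nearly equal, at 19.7 ± 8.44 and 19.5 ± 1.03 CPM (SD, n = 3 each), but the anti-NK1.1 libraries lay on either side of the isotype range. Usp18 had 7.86, 8.76 and 19.9 CPM in anti-NK1.1 libraries, against 7.36, 8.81 and 15.8 CPM in isotype libraries, a log2 change of 0.19 ± 0.53. Its groups covered nearly the same range, with replicate 3 highest in each. Herc6 (chromosome 6, 57581000 to 57664632) had 3.35, 6.28 and 6.90 CPM in anti-NK1.1 libraries, against 10.7, 9.33 and 7.71 CPM in isotype libraries. Every anti-NK1.1 library lay below every isotype library, and the log2 change was -0.75 ± 0.53 (adjusted p = 0.766 by edgeR).

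The IFIT proteins bind foreign RNA, and the MX proteins are GTPases that trap viral particles. Ifit3 (chromosome 19, 34583531 to 34588731) had 4.29, 7.74 and 13.6 CPM in anti-NK1.1 libraries 1 to 3, against 8.87, 7.35 and 15.6 CPM in isotype libraries 1 to 3, and the groups overlapped. Its neighbours Ifit1 and Ifit2 were low, averaging 3.97 ± 5.68 and 1.30 ± 1.85 CPM in anti-NK1.1, against 5.14 ± 2.96 and 4.73 ± 4.69 CPM in isotype libraries. Ifit1 stood at 10.5 CPM in anti-NK1.1 2 but at 1.13 and 0.279 CPM in anti-NK1.1 1 and 3. The log2 changes were -0.31 ± 0.57 for Ifit3, -0.37 ± 1.14 for Ifit1 and -1.86 ± 1.51 for Ifit2. All 5 IFIT and MX genes had negative values, with Mx1 at -0.03 ± 0.89 and Mx2 at -0.08 ± 1.56, and every SE of the 5 was above 0.5.

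The OAS enzymes make an oligoadenylate that activates RNase L, and the OASL proteins are relatives. Oasl2 (chromosome 5, 114896936 to 114912234) had 7.98, 8.32 and 6.18 CPM in anti-NK1.1 libraries 1 to 3, against 8.54, 9.70 and 16.4 CPM in isotype libraries 1 to 3. The groups did not overlap, although anti-NK1.1 2 and isotype 1 were nearly equal, and the log2 change was -0.62 ± 0.48 (edgeR adjusted p = 0.780). Its neighbour Oasl1 had 6.10, 3.56 and 31.8 CPM in anti-NK1.1 libraries, against 5.27, 10.8 and 15.8 CPM in isotype libraries. Anti-NK1.1 libraries held both the highest and the lowest Oasl1 value. Oas1a, with 18.7, 8.79 and 39.3 CPM in anti-NK1.1 libraries, against 6.89, 12.4 and 16.4 CPM in isotype libraries, had the highest log2 change of the list, 0.90 ± 0.57, while Oas2 and Oas3 of the same cluster had -0.79 ± 1.27 and -0.35 ± 0.65. Without anti-NK1.1 3 the log2 change of Oas1a was 0.20. Oas1a has near-identical neighbours, among them Oas1g, so its counts are uncertain.

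None of the 3 genes for enzymes of nucleotides and RNA passed the test. Rsad2 (viperin, which makes a chain-terminating nucleotide) averaged 8.46 ± 3.75 CPM in anti-NK1.1, against 14.5 ± 4.16 CPM in isotype libraries, and its chromosome 12 neighbour Cmpk2, a nucleotide kinase, 9.59 ± 4.84 and 15.5 ± 3.78 CPM. For both, anti-NK1.1 3 overlapped the isotype libraries, and the log2 changes were -0.78 ± 0.50 and -0.69 ± 0.48. With length and GC trends taken out of the libraries, they were -0.18 and -0.38. The exonuclease gene Isg20 had the same mean, 17.1 CPM, in each group.

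Membrane proteins that restrict viruses gave the most abundant transcripts and the smallest p of the list. Bst2 (tetherin, which holds budding virus at the cell surface; chromosome 8, 71534255 to 71537456) had 97.3, 62.3 and 105 CPM in anti-NK1.1 libraries 1 to 3, against 55.5, 51.8 and 49.7 CPM in isotype libraries 1 to 3. Every anti-NK1.1 library lay above every isotype library, with means of 88.1 ± 22.7 and 52.4 ± 2.92 CPM (SD, n = 3 each). That was 1.68 times the isotype level, a log2 change of 0.75 ± 0.26, and edgeR did not call it (adjusted p = 0.727). The promoter of Bst2, printed above, held 2 overlapping matches. Bst2 is also a marker of plasmacytoid dendritic cells and border macrophages carry interferon-induced genes too. The 4 plasmacytoid dendritic cell markers, of which Klk1 was at 0 in every library, summed to 20.7 to 36.04 CPM in anti-NK1.1 and 6.64 to 18.8 CPM in isotype libraries, and the 5 border macrophage markers, 4 of them with a positive log2 change, to 96.2 to 171 CPM and 47.4 to 83.9 CPM. The marker sums of other cell types did the same: the 5 oligodendrocyte markers summed to 655 to 795 CPM in anti-NK1.1 libraries, against 213 to 308 CPM in isotype libraries. The 5 neuron markers summed to 177 to 559 CPM in anti-NK1.1 libraries, against 37.4 to 134 CPM in isotype libraries, and the 5 T cell markers in the table to 25.85 to 29.0 CPM, against 8.15 to 15.9 CPM. All of these 15 markers had a positive log2 change. For these 5 sums, as for Bst2, all anti-NK1.1 values lay above all isotype values, and their part in the result was not tested.

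Ifitm3 and Ifitm2 encode proteins that block virus fusion and lie close together on chromosome 7. Ifitm3 (141009586 to 141010770) had 605, 345 and 1379 CPM in anti-NK1.1 libraries 1 to 3, against 588, 474 and 504 CPM in isotype libraries 1 to 3. Ifitm2 (140954837 to 140955987) had 419, 217 and 614 CPM in anti-NK1.1 libraries, against 384, 344 and 316 CPM in isotype libraries. For both genes anti-NK1.1 3 was highest and anti-NK1.1 2 lowest of all 6 libraries, so the log2 changes of 0.57 ± 0.42 and 0.26 ± 0.34 had no common direction across libraries. Without anti-NK1.1 3 the log2 changes of Ifitm3 and Ifitm2 were both -0.14. Anti-NK1.1 3 was also the library with the highest neutrophil marker sum, and anti-NK1.1 1 and 2 had the lowest sums. Ifitm3 had 605 CPM in anti-NK1.1 1, beside 588 CPM in isotype 1, the highest isotype library. The related gene Ifitm6, outside the list, had 180, 127 and 641 CPM in anti-NK1.1 libraries, against 406, 354 and 362 CPM in isotype libraries. The 6 monocyte markers summed to 1339, 1776 and 5452 CPM in anti-NK1.1 libraries, against 4749, 4176 and 4306 CPM in isotype libraries. In bulk samples, fewer cells of a type and less RNA per cell cannot be told apart. The part of neutrophil and monocyte transcripts in the values of these genes was not tested. Ifitm2 and Ifitm3 resemble each other in sequence, which makes the split of reads between them uncertain.

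The other effectors included some of the smallest p-values of the list. Rtp4, which encodes an interferon-induced transporter of membrane receptors (chromosome 16, 23520291 to 23614222), had 52.4, 32.4 and 64.4 CPM in anti-NK1.1 libraries 1 to 3, against 26.8, 28.3 and 33.5 CPM in isotype libraries 1 to 3. Its groups overlapped only in that anti-NK1.1 2 lay just below isotype 3, and the log2 change was 0.75 ± 0.32 (edgeR adjusted p = 0.743). Ifi27l2a, a small membrane protein gene (chromosome 12, 103442167 to 103443680), had 136, 85.9 and 334 CPM in anti-NK1.1 libraries, against 114, 102 and 85.8 CPM in isotype libraries. Anti-NK1.1 2 was level with the lowest isotype library and anti-NK1.1 3 far above all others, and the log2 change was 0.88 ± 0.44 (edgeR adjusted p = 0.743). Without anti-NK1.1 3 it was 0.14.

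Ifi35, a modulator of innate signalling, had 78.7, 66.9 and 131 CPM in anti-NK1.1 libraries, against 74.0, 72.9 and 50.2 CPM in isotype libraries, a log2 change of 0.49 ± 0.31. Xaf1, a pro-apoptotic gene, had 17.3, 14.7 and 23.2 CPM in anti-NK1.1 libraries, against 20.1, 14.5 and 19.1 CPM in isotype libraries. The groups of both genes overlapped. Trim30a, a negative regulator of Toll-like receptor signalling in mice, and Parp14, an ADP-ribosyltransferase, had log2 changes of -0.45 ± 0.31 and -0.76 ± 0.51, also with overlapping groups. Ifi44 did not pass the filter, with 66, 0 and 30 counts in anti-NK1.1 libraries 1 to 3 and 0 in every isotype library.

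The levels of the list spanned a wide range, and their order was similar in the 2 groups. Per kilobase of transcript, the highest 6 genes in either group were Ifitm3, Ifitm2, Ifi27l2a, Ifnar2, Bst2 and Ifi35, at 1145, 636, 400.1, 149, 111 and 67.8 CPM in anti-NK1.1, against 769.9, 532, 217, 121, 66.1 and 48.2 CPM in isotype libraries. The means of neighbours in that order from Ifitm3 to Ifi27l2a did not separate beyond the SD of the anti-NK1.1 libraries. There Ifitm3 varied from 345 to 1379 CPM before division by length. That SD is a spread between libraries. Within every library, CPM before division by length was higher for Ifitm3 than for Ifitm2, and higher for Ifitm2 than for Ifi27l2a. Over all 36 genes the CPM summed to 2138, 1539 and 3497 in anti-NK1.1 libraries 1 to 3, against 1940, 1796 and 1988 in isotype libraries 1 to 3. Leaving out Ifitm3, Ifitm2 and Ifnar2, the sums were 664.0, 639 and 1137 CPM in anti-NK1.1 libraries, against 669, 660.0 and 845 CPM in isotype libraries. Anti-NK1.1 3 and isotype 3 were thus the highest of their groups, and anti-NK1.1 2 the lowest of all.

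**Figure D2:**
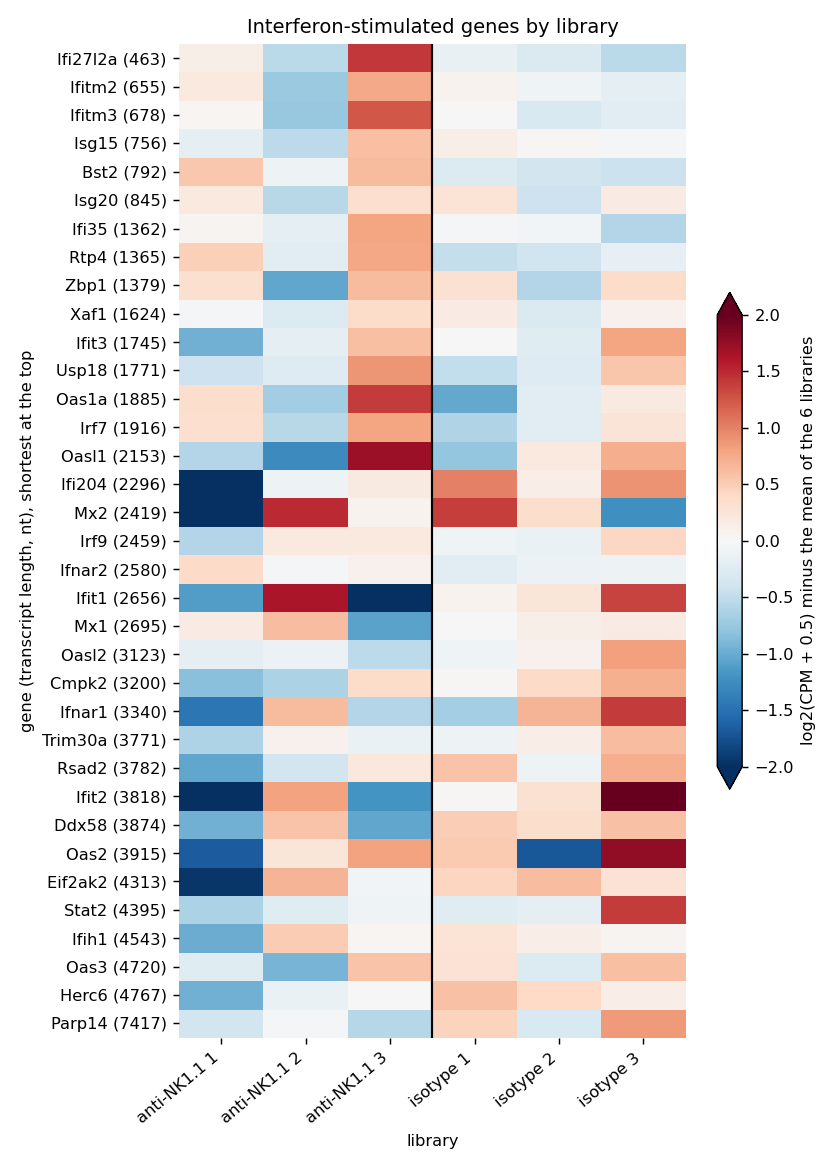
Level of each of the 35 tested genes in each library, as log2(CPM + 0.5) minus the mean of the 6 libraries (colour, clipped at -2 and 2), with anti-NK1.1 libraries left of the line and genes ordered by transcript length, shortest at the top. Anti-NK1.1 3 is red for most short genes and isotype 3 for most long genes, while anti-NK1.1 1 is blue for most long genes.

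Transcript length went with the direction of the log2 change. The median transcript length ranged from 463 nt for Ifi27l2a to 7417 nt for Parp14, and the median over all tested genes was 2604 nt. Of the 19 tested genes of the list below that length, 15 had a positive log2 change (median 0.26). Of the 16 at or above it, 0 had a positive one (median -0.72). Among all tested genes, 62.4% of those below 2604 nt and 39.3% of those at or above it had a positive log2 change. The rank correlation of log2 change with length was -0.76 across the 35 genes and -0.22 across 14421 genes with a known length, where genes share the same 6 libraries and are not independent. The split at the median was chosen after the values were seen.

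The libraries carried this pattern unequally. Of the 19 shorter genes, 14 were highest in anti-NK1.1 3. Of the 16 longer genes, 11 were highest in isotype 3 and 9 lowest in anti-NK1.1 1. The median deviation of the longer genes from the mean of the 6 libraries was -0.96, 0.17 and -0.11 on the log2 scale in anti-NK1.1 libraries 1 to 3, against 0.17, 0.13 and 0.72 in isotype libraries 1 to 3. For the shorter genes it was 0.06, -0.28 and 0.64 in anti-NK1.1 libraries, against -0.03, -0.22 and 0.09 in isotype libraries. With anti-NK1.1 1 and 3 left out, the rank correlation with length across the 35 genes was -0.01, and the median log2 change was -0.43.

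Each library was then corrected for its trend with transcript length and GC content. The rank correlation of log2 change with length became -0.36 across the 35 genes and 0.04 across all genes, and the median log2 change of the 35 genes was -0.08, with 15 positive. The groups did not overlap for Bst2 and Ifnar2, whose log2 changes were 0.36 ± 0.21 and 0.45 ± 0.21. These were 2 of the 35 genes (5.71%) with higher anti-NK1.1 values, beside 8.79% of all tested genes. With lower values there were 0 of the 35, beside 6.68% of all tested genes. Oasl2 and Herc6, the pair that lay lower in every anti-NK1.1 library, had -0.33 and 0.03 with overlapping groups. Ifi204, Ifnar1 and Stat2 had -0.78, -0.71 and -0.47, and Rtp4 and Oas1a had 0.76 and 0.82. No gene of the list passed the test after the correction either.

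**Figure D3:**
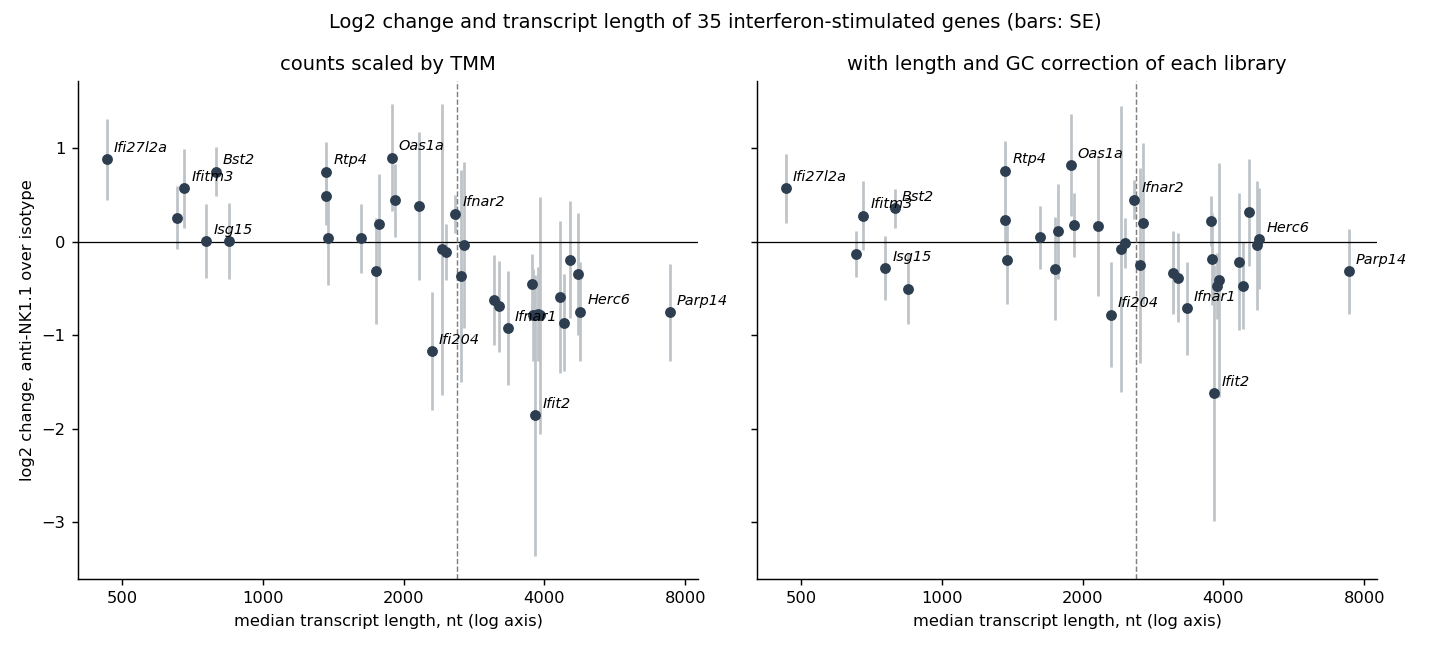
Log2 change of anti-NK1.1 over isotype (vertical axis, bars show the SE) against median transcript length in nt (log axis) for the 35 tested genes, from the counts (left) and after correction of each library for length and GC content (right), with the dashed line at 2604 nt. All 16 genes at or right of the line lie below 0 on the left, and the rank correlation is -0.76 on the left and -0.36 on the right.

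The rest of the pathway was followed in 2 further lists. The list of sensing and signalling genes had 27 tested genes, 10 with a positive and 17 with a negative log2 change (median -0.35), and edgeR called 0 of them (smallest adjusted p = 0.729, 3 at an unadjusted p under 0.05). The receptor kinase genes Jak1 and Tyk2 had log2 changes of -0.98 ± 0.64 and -0.71 ± 0.47. Trim25, the ubiquitin ligase that activates RIG-I, averaged 9.09 ± 1.23 CPM in anti-NK1.1, against 17.8 ± 3.14 CPM in isotype libraries, a log2 change of -0.97 ± 0.39. Irf1 averaged 80.04 ± 5.998 and 117 ± 18.1 CPM, a log2 change of -0.54 ± 0.22. For both, all anti-NK1.1 values lay below all isotype values, and edgeR's adjusted p was 0.729 for Trim25 and 0.740 for Irf1. Of the 27 tested genes, 4 lay lower in this way (14.8%) and 1 higher (3.7%), beside 7.59% and 7.73% of all tested genes. After the length and GC correction these were 1 (3.7%) and 1 (3.7%), beside 6.68% and 8.79% of all tested genes. The groups of Trim25 then overlapped, while those of Irf1 did not. The RNA sensor gene Tlr7 had -0.93 ± 0.41 with overlapping groups, and Irf3 had 0.11 ± 0.29. Jak1, Tlr7 and Trim25 had -0.75, -0.39 and -0.57 after the length and GC correction.

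The interferon genes themselves were mostly at 0 in these libraries. Of 18 type I interferon genes in the table, 16 had 0 counts in every library, among them all 14 interferon alpha genes. Ifnb1, which encodes interferon beta, had 71, 0 and 14 counts in anti-NK1.1 libraries 1 to 3, against 0, 30 and 0 counts in isotype libraries 1 to 3. Its log2 change of 1.79 ± 2.24 was smaller than its SE.

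The list of other interferon-stimulated genes had 53 tested genes, 16 with a positive and 37 with a negative log2 change (median -0.42), and edgeR called 0 of them (smallest adjusted p = 0.727, 3 at an unadjusted p under 0.05). Their groups did not overlap for 5 genes with higher (9.43%) and 9 with lower anti-NK1.1 values (17.0%), beside 7.73% and 7.59% of all tested genes. After the length and GC correction these were 2 (3.77%) and 2 (3.77%), beside 8.79% and 6.68% of all tested genes. Sp100, a nuclear body gene, had 15.9, 42.4 and 28.2 CPM in anti-NK1.1 libraries 1 to 3, against 73.6, 56.0 and 61.9 CPM in isotype libraries 1 to 3. Every anti-NK1.1 library lay lower, and the log2 change was -1.15 ± 0.37, or -1.07 after the length and GC correction. Ly6a, a surface antigen of stem and endothelial cells, had 56.5, 39.9 and 45.9 CPM in anti-NK1.1 libraries, against 18.2, 21.1 and 32.6 CPM in isotype libraries. Endothelial markers summed to 119, 76.7 and 30.9 CPM in anti-NK1.1 libraries, against 25.3, 37.2 and 55.6 CPM in isotype libraries, and their part in Ly6a was not tested. Lgals3bp, a secreted glycoprotein gene, averaged 179 ± 20.4 CPM in anti-NK1.1, against 122 ± 5.24 CPM in isotype libraries, a log2 change of 0.56 ± 0.21. The chemokine gene Cxcl10 and the membrane gene Ifitm1 had -0.59 ± 0.39 and -0.02 ± 0.37, with overlapping groups. The rank correlation of log2 change with length was -0.74 in the sensing list and -0.59 in the list of other interferon-stimulated genes.

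**Figure D4:**
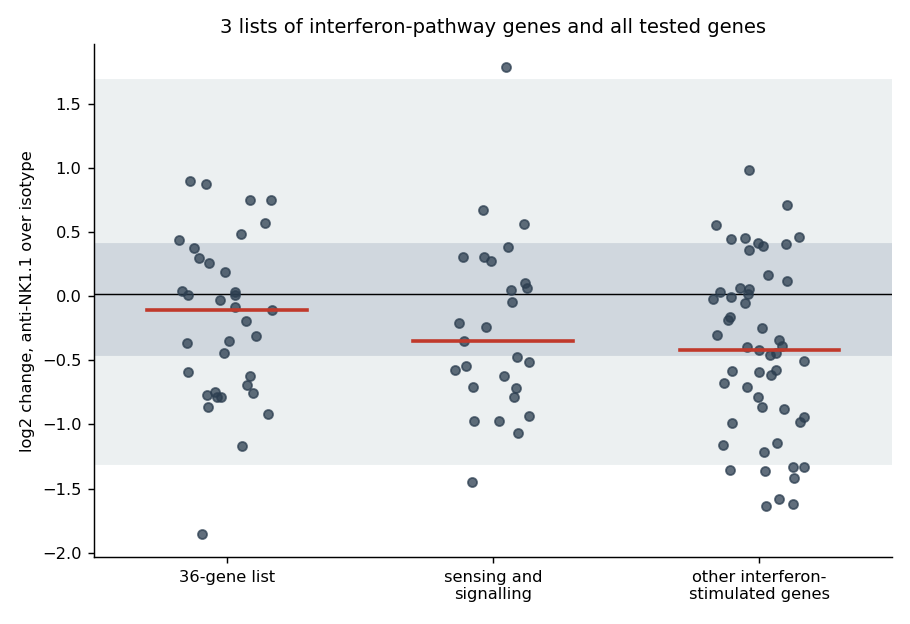
Log2 change of anti-NK1.1 over isotype for the 35 tested genes of the main list (left), 27 sensing and signalling genes (middle) and 53 other interferon-stimulated genes (right), with the median of each list in red. The dark and light bands hold the middle 50% and 90% of all tested genes, and the list medians of -0.11, -0.35 and -0.42 lie inside the dark band.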

How the data were processed

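Microglial RNA was sequenced without strand information or molecular identifiers, per the labels' protocols. The authors deposited whole-number read counts per gene under a name that calls them normalized. They were treated as raw counts because library totals differ (26.9 M to 36.1 M) and the table keeps a row for reads in no gene, so an earlier scaling by the authors cannot be told apart from depth. The submitters' processing notes name bcl2fastq 2.20.0.422, STAR 2.5.3a, Cufflinks 2.0 and mm10. Which read counter and annotation were used is not given in the sources used here. Of 24956 gene rows, 14520 passed filterByExpr. 26 rows whose names had turned into dates and 2 naming no gene were left out. Reads assigned to no gene were 53.3% to 57.4% of each library.

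Counts were scaled by TMM and compared with edgeR 4.0.16 (R 4.3.3, quasi-likelihood test, two-sided, Benjamini-Hochberg adjustment over all tested genes, threshold 0.05). Transcript length and GC content came from GENCODE for GRCm38, and promoters from RefSeq. The correction for length and GC content fitted a smooth trend per library with mgcv 1.9.3. The edgeR script was tested on simulated data. DESeq2 1.42.0, limma 3.58.1, other filters and left-out libraries were alternatives. A count of 3, the floor for a gene at 0, was 0.0831 to 0.112 CPM and covers counting error only.

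The genes and lists were chosen with earlier results of these data known. Values per library are given for genes whose groups did not overlap, the 6 of smallest p, the 5 of highest CPM and a fixed set of receptor, factor and effector genes. Some items are not reported here.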

Additional observations from a re-analysis of the deposited data

Results flagged for a closer look

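Ifi44, an interferon-induced cytoplasmic protein gene that was too low to enter the test, had 96 counts over the anti-NK1.1 libraries and 0 over the isotype libraries. Its counts were 66, 0 and 30 in anti-NK1.1 libraries 1 to 3 and 0 in every isotype library, so 1 of the 3 anti-NK1.1 libraries was at 0 too. Summed over each group, against a floor of 3 counts for the isotype group, the anti-NK1.1 level was at least 39.6-fold the isotype level. This bound covers counting error only and is not itself a replicate test. With no filter on low counts, all 36 genes of the list entered edgeR's test. It called 0 of them, so Ifi44 was not called there. The bound does not hold for each library, since anti-NK1.1 2 was at 0 like the isotype libraries. Counts of this size also came and went within groups for Ifnb1. That gene had 71, 0 and 14 counts in anti-NK1.1 libraries 1 to 3, against 0, 30 and 0 in isotype libraries 1 to 3. The share of all genes at 0 in every library of a group is not given here. Without anti-NK1.1 1, 30 counts were left over the other 2 anti-NK1.1 libraries, and the bound was 17.9-fold. Without anti-NK1.1 2, the library at 0, it was 65.9-fold. Leaving out a library here was chosen after seeing the data. No other gene of the list had 0 counts in every library of a group.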

How the results depend on the processing

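Of the 35 tested genes, 0 were called under any of 15 alternatives, with a smallest adjusted p of 0.095 (edgeR, without anti-NK1.1 2). The sign of the log2 change held under every alternative that tested the gene for 13 genes: Bst2 (0.26 to 0.95), Ifnar2 (0.12 to 0.45), Rtp4 (0.14 to 0.98), Ifi35, Ifit2, Rsad2 (-1.16 to -0.18), Cmpk2, Oasl2, Oas3, Stat2, Parp14, Ifi204 and Ifnar1. Of these, Ifit2 was too low for the alternative with a mean CPM of at least 5, which tested 29 genes of the list. For the other 22 genes the sign turned under at least 1 alternative, and the cause was not tested. Among all genes, 83 were called by DESeq2 and 2 by limma-voom with quantile normalization. With 1 library left out, 0 to 129 were called, the highest without anti-NK1.1 2, when 0 to 1 genes of the 2 further lists were called. Genes of the list with a positive log2 change numbered 10 to 20. The number whose groups did not overlap was 4, and 2 with the length and GC correction.

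The median log2 change of the list was -0.43 with anti-NK1.1 1 and 3 left out. Log2 changes that turned there were 0.10 for Ddx58, 0.26 for Eif2ak2, -0.22 for Ifi27l2a, 0.39 for Ifih1, 1.03 for Ifit1, -0.68 for Ifitm2, -0.59 for Ifitm3, -0.42 for Irf7, 0.11 for Irf9, -0.57 for Isg15, -0.60 for Isg20, 0.62 for Mx1, 1.12 for Mx2, -0.43 for Oas1a, -1.57 for Oasl1, -0.28 for Usp18, -0.28 for Xaf1 and -1.18 for Zbp1. That setting leaves 1 anti-NK1.1 library, which is assumed to vary like the isotype libraries. The length and GC correction gave 0.03 for Herc6, 0.32 for Ifih1, -0.13 for Ifitm2, -0.28 for Isg15, -0.51 for Isg20, 0.20 for Mx1, 0.22 for Trim30a and -0.20 for Zbp1. Quantile normalization gave -0.17 for Oasl1 and -0.04 for Zbp1.

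With 1 library left out, the ranges that crossed 0 were -0.60 to 0.15 for Ifih1, -2.86 to 0.21 for Ifit1, -0.82 to 0.08 for Ifit3, -0.14 to 0.57 for Ifitm2, -0.14 to 0.93 for Ifitm3, -0.23 to 0.11 for Irf9, -0.39 to 0.23 for Isg15, -0.18 to 0.24 for Isg20, -0.51 to 0.37 for Mx1, -1.56 to 0.90 for Mx2, -1.47 to 0.40 for Oas2, -1.14 to 0.84 for Oasl1, -0.36 to 0.59 for Usp18, -0.17 to 0.17 for Xaf1 and -0.31 to 0.41 for Zbp1. Leaving out anti-NK1.1 3 turned 11 genes, anti-NK1.1 1 turned 7 and isotype 3 turned 6.

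The main fit did not pair libraries by replicate number. The correlations of same-numbered deviations were 0.053, 0.030 and -0.004, and not every library correlated best with its own number. Correlations this weak cannot show whether libraries were handled in pairs. With the replicate number as a block, 0 genes were called, the median of the list was -0.25 with 12 positive, and the turned values were -0.07 for Isg15, -0.01 for Isg20, 0.08 for Mx2, -0.10 for Oasl1 and -0.06 for Zbp1. The block with the length and GC correction gave 0.26 for Ifih1, -0.17 for Ifitm2, -0.31 for Isg15, -0.44 for Isg20, 0.03 for Mx1, 0.18 for Mx2, -0.28 for Oasl1, 0.21 for Trim30a and -0.22 for Zbp1.

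With 3 libraries a group and a biological coefficient of variation of 0.64, the low genes Ifit2 and Mx2 had SEs above 1.5 on the log2 scale. The simulated data served to check the edgeR script, and the size of change that this design could detect is not given here.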
